A study of Mus musculus with 3 samples.

Results

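Solute carriers of the Slc families, the mitochondrial Slc25 family left out, were examined in erythroblasts of mouse embryos at E10.5. The symbols of 192 genes fit the naming pattern of these families, with Slc4a1, Slc11a2, Slc30a1 and Slc39a10 set aside, and the 135 with at least 10 counts summed over the 3 libraries were taken, of 15058 genes in all. The members were thus chosen by their summed counts, which are given as a description: Slc34a2 and Slc7a4 lay on the limit with 10 counts each, Slc26a11 and Slc8a1 had 11, and Slc12a8 (9.34), Slc27a1 (9.03), Slc32a1 (9) and Slc4a3 (9) lay just under it. A member could pass through 1 library alone, as Slc26a11 did with 11 counts in the Drosha-null library and 0 in the others.

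Erythroblasts are the nucleated precursors of red blood cells, and these were sorted from the peripheral blood of 5 embryos pooled per library on CD71, the transferrin receptor, and on Ter119, a red-cell surface antigen. The Drosha-null library came from CD71+ Ter119 high cells of Drosha fl/fl;cdh5-cre+ embryos, the conditional knockout (cKO). The Ter119-low library came from CD71+ Ter119 low cells of the same cKO genotype, in which Drosha is labelled as abundant as in the wild type. The control library came from CD71+ Ter119 high cells of Drosha fl/fl or Drosha fl/+ embryos, labelled wild type for Drosha abundance. Drosha, an RNase of the nucleus, releases microRNA precursors from their primary transcripts, and the Cre that deletes it is driven by the promoter of Cdh5, an endothelial gene, so deletion reaches erythroblasts through Cdh5-expressing precursors and not through an erythroid promoter. The Drosha-null and control libraries share the gate and differ in genotype, the Drosha-null and Ter119-low libraries share the genotype and differ in gate, and between the Ter119-low and control libraries gate and genotype cannot be told apart.

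With 1 library in each group there was no replicate, so no test was made between groups. Each difference is given as a log2 ratio of counts scaled between libraries by TMM (trimmed mean of M values), with 0.5 counts added to each and an exact 95% Clopper-Pearson interval in parentheses. The interval covers counting error only, since each group has 1 library. Reads that carry no molecular identifier need not be independent, so the interval may be too narrow even for that error. A gene was said to have risen or fallen when the ratio was at least 2-fold and its interval excluded 1, among genes that reached 1 CPM (a count relative to the scaled depth) in at least 1 of the libraries compared.

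Total counts were 9325814 in the Drosha-null, 9418474 in the Ter119-low and 9497425 in the control library. Drosha itself had 122 counts in the Drosha-null, 244 in the Ter119-low and 324 in the control library, a log2 ratio of -1.81 (-2.13 to -1.51) for Drosha-null against control and of -0.49 (-0.74 to -0.25) for Ter119-low against control. Which exons are deleted is not stated in the labels, so the reads that remain check the null label only in part. All 10 erythroblast markers examined, globins and Tfrc among them, were present in every library and summed to 1573158 counts in the Drosha-null, 2150514 in the Ter119-low and 2337204 in the control library. Markers of endothelium (8 genes) summed to 225, 81 and 75 counts in the same order, those of cardiac muscle (7 genes) to 311, 64 and 74, and those of neural cells (3 of 4 listed) to 274, 173 and 154. Mesenchyme (5 genes) gave 127, 68 and 67 counts, megakaryocytes and platelets (5 genes) 138, 119 and 98, macrophages and myeloid cells (5 of 8 listed) 75, 24 and 49, and yolk sac endoderm and hepatocytes (4 of 6 listed) 4, 8 and 3. In bulk RNA, fewer cells of a type and less RNA per cell cannot be told apart.

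Solute carriers are membrane proteins that move small molecules across the plasma membrane and the membranes of organelles, by facilitated diffusion, by exchange, or by cotransport with sodium or protons. A maturing erythroblast needs them for glucose, for amino acids including glycine for heme, for metals, and for the urea, nucleoside and anion traffic of the red cell membrane. MicroRNAs, the products of the Drosha pathway, pair through bases 2 to 8 of the mature strand, the seed, with complementary letters in 3′ untranslated regions.

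The mature sequences of 5 microRNAs of families known in erythroid or dividing cells are shown because their seeds set the letters searched for in the carriers' 3′ untranslated regions. They are RefSeq sequences on GRCm38.p6, with the seed in capitals.
mmu-miR-451a (chr11:78073186-78073207, plus strand): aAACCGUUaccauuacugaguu
mmu-miR-144-3p (chr11:78073047-78073066, plus strand): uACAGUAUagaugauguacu
mmu-let-7a-5p (chr13:48538239-48538260, minus strand): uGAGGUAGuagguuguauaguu
mmu-miR-92a-3p (chr14:115044476-115044496, plus strand): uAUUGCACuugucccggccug
mmu-miR-17-5p (chr14:115043684-115043706, plus strand): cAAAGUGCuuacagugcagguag

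The letters complementary to these seeds are AACGGTT for miR-451a, ATACTGT for miR-144-3p, CTACCTC for let-7, GTGCAAT for miR-92a/25 and GCACTTT for miR-17/20/93. They were searched on the transcript strand of the longest annotated 3′ untranslated region of each gene (GENCODE annotation, GRCm38). The stretches below, with the matched letters in capitals, are from carriers that rose or fell in the Drosha-null library and are described further on.
Slc43a2, miR-451a (chr11:75573573-75573595, plus strand): acatcaggggactggAACGGTTc
Slc44a5, miR-451a (chr3:154271270-154271292, plus strand): gccaatagaaactggAACGGTTt
Slc38a1, miR-144-3p (chr15:96574162-96574184, minus strand): ttcttgtaacacagaATACTGTa
Slc22a23, let-7, the most upstream of 3 (chr13:34182501-34182523, minus strand): tgtaggccaggacccCTACCTCc
Slc22a23, let-7, the middle of 3 (chr13:34179852-34179874, minus strand): gtgaggaacgcctccCTACCTCt
Slc22a23, let-7, the most downstream of 3 (chr13:34179611-34179633, minus strand): tctggaatgtcttccCTACCTCa
Slc6a8, let-7 (chrX:73681349-73681371, plus strand): cattgcttccaggccCTACCTCc
Slc27a4, let-7 (chr2:29816464-29816486, plus strand): agcctggctccttgcCTACCTCc
Slc19a2, miR-17/20/93 (chr1:164265258-164265280, plus strand): tgggctgtactgtatGCACTTTg
Slc2a4, miR-17/20/93 (chr11:69943302-69943324, minus strand): ctcctttcctctacaGCACTTTa

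The carriers together took a small part of the RNA, 0.508% of the counts in the Drosha-null, 0.457% in the Ter119-low and 0.453% in the control library. Levels between genes are compared in FPKM, the deposited counts per kilobase of gene length, scaled to library size. By that measure expression was concentrated in few carriers, more so outside the Drosha-null library: the 10 most abundant held 48.8% of the members' summed FPKM in the Drosha-null, 61.9% in the Ter119-low and 62.4% in the control library. The median carrier had 2.88 FPKM in the Drosha-null, 1.64 in the Ter119-low and 1.70 in the control library. At 10 FPKM or more stood 33 carriers in the Drosha-null, 20 in the Ter119-low and 22 in the control library, and under 1 FPKM stood 39, 50 and 50 in the same order. These shares and FPKM values omit the TMM factors of 1.19 (Drosha-null), 0.946 (Ter119-low) and 0.885 (control). They are not set beside those of all genes, so they do not show that carriers as a group were raised. By TMM the median log2 ratio of the carriers was 0.14 for Drosha-null against control.

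Slc39a8, which imports zinc and manganese, led the order in every library with 182 FPKM in the Drosha-null, 220 in the Ter119-low and 231 in the control library. Slc43a3, a purine nucleobase carrier, held rank 2 in the Ter119-low and control libraries and lower, at rank 4, in the Drosha-null library, at 63.3 FPKM in the Drosha-null, 108 in the Ter119-low and 106 in the control library. Slc2a1, the glucose carrier GLUT1, held rank 2 in the Drosha-null library, below Slc39a8 alone, and rank 5 in both other libraries. The head of the order was thus held by carriers of metals, nucleobases, amino acids, glucose and phosphate, with Slc43a1, Slc7a11 and Slc20a1 in the first 7 places of all 3 libraries.

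**Figure D1:**
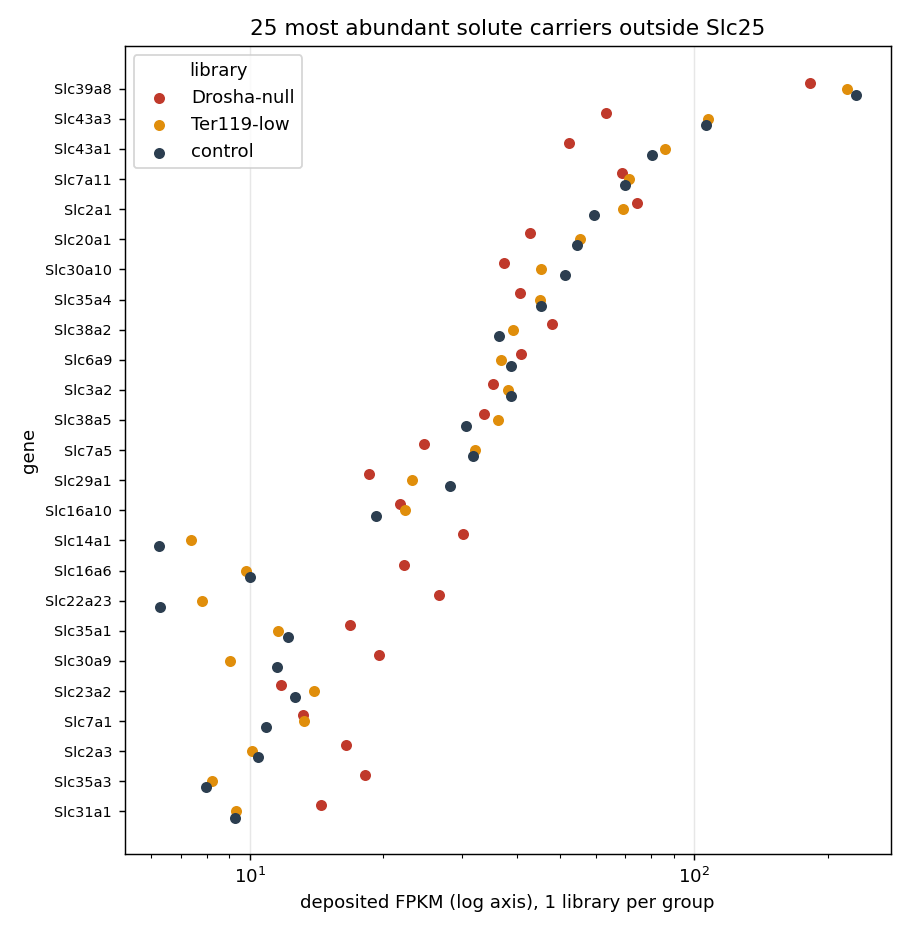
Deposited FPKM of the 25 most abundant solute carriers, on a log axis, with 1 point per library for Drosha-null, Ter119-low and control. Slc39a8 led at 182, 220 and 231 FPKM, Slc43a3 and Slc43a1 lay lower in the Drosha-null library than in both others, and Slc14a1 and Slc22a23 lay higher.

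Of the 121 carriers measured for Drosha-null against control, 25 rose and 14 fell. As shares, 20.7% of the carriers rose and 11.6% fell, where among all 10769 genes so measured 12.4% rose and 7.79% fell. Their median log2 ratio was 0.14, against -0.02 for all genes, so more carriers than the background moved in both directions while the middle of the group stayed close to that of all genes. Scaling by total counts, which adds 0.43 to every log2 ratio of this comparison, gave 43 risen and 8 fallen carriers, with 23% of all genes risen and 2.70% fallen, and it turned the sign of 25 carriers, 0 of them past the threshold. The summed markers of endothelium, cardiac muscle, neural cells, mesenchyme, macrophages and megakaryocytes above were also higher in the Drosha-null than in the control library. Single markers differed: Pecam1 (3.58), Ttn (1.87) and Mpo (1.45) rose, while Kdr (-0.17), Tnnt2 (-0.09), Cd68 (-0.78), Lyz2 (-0.12) and Sox2 (-0.16) did not. The part of such markers' cells in the counts of carriers was not tested.

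Between the Drosha-null and Ter119-low libraries, which come from the same genotype, 25 carriers were higher and 9 lower of 121 (20.7% and 7.44%), against 10.8% and 5.94% of all genes. The median log2 ratio was 0.29, against -0.02 for all genes. Scaling by total counts, which adds 0.34 to the log2 ratio of every gene in this comparison, gave 43 higher and 5 lower. The shares of all genes under that scaling are not given here, so the larger count is not read as a trait of the carriers. For Ter119-low against control, 3 rose and 6 fell of 121 (2.48% and 4.96%), against 2.9% and 2.76% of all genes, with a median of -0.06. Total counts gave 5 and 4 there, likewise without the shares of all genes beside them. With a limit of 5 CPM in place of 1 CPM 0 rose and 0 fell, so the 3 risen and 6 fallen came from scarce transcripts. Both comparisons with the control share its library, and the first and second share the Drosha-null library, so their values are set side by side and not counted as independent.

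In all, 48 carriers passed the rule in at least 1 comparison and 87 in none. Of the 25 that rose in the Drosha-null library against control, 18 were also higher there than in the Ter119-low library and did not pass between Ter119-low and control, where 17 of them were measured and Slc44a5 was too scarce. Slc43a2 alone also fell in the Ter119-low library against control. The shares of all genes with these patterns were not counted. Among all genes only 2.9% rose and 2.76% fell between Ter119-low and control, and the other comparisons share the Drosha-null library. The patterns are thus not read as a trait of the carriers.

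**Figure D2:**
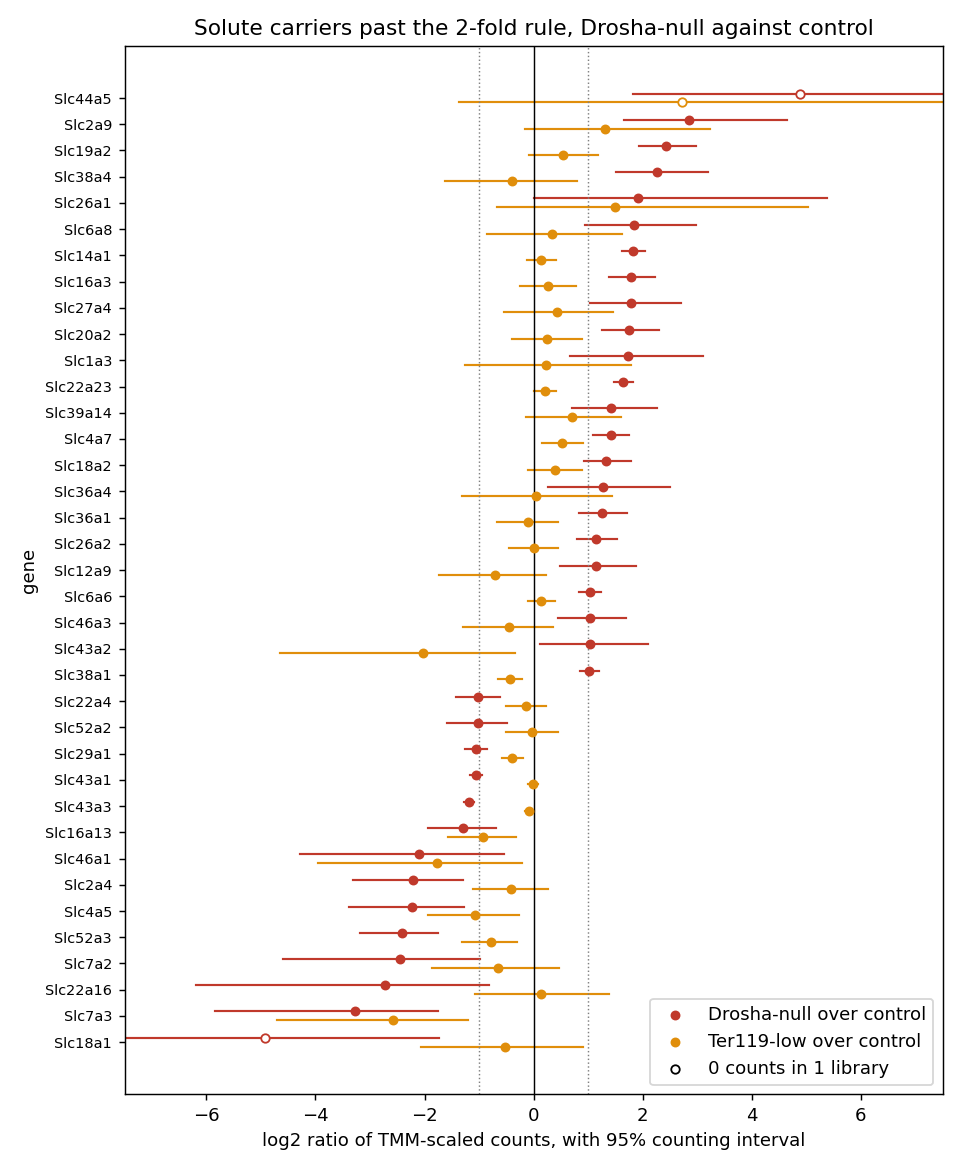
Log2 ratio of TMM-scaled counts, with 95% counting intervals, for 37 of the carriers that rose or fell in the Drosha-null library, shown for Drosha-null over control and for Ter119-low over control. Dotted lines mark 2-fold, open circles mark a gene with 0 counts in 1 library, whose plotted position depends on the 0.5 counts added, and most Ter119-low points lie near 0.

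Carriers of inorganic ions, bicarbonate and protons had 7 risen and 1 fallen of 18 measured and a median log2 ratio of 0.51. As shares, 38.9% rose and 5.56% fell, against 12.4% and 7.79% of all genes, whose median was -0.02. By total counts 9 of 19 rose and 1 fell. Each role holds few genes, so the shares here and below are not read as traits of a role. Slc4a7, a sodium-bicarbonate cotransporter, had 354 counts in the Drosha-null, 152 in the Ter119-low and 100 in the control library and a log2 ratio of 1.41 (1.09 to 1.75) against control. The Ter119-low library lay between the others, 0.52 (0.15 to 0.90) above control.

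The phosphate importers moved apart. Slc20a2 (PiT-2) had 176 counts in the Drosha-null, 49 in the Ter119-low and 39 in the control library, a log2 ratio of 1.75 (1.26 to 2.31) against control. Slc20a1 (PiT-1), the more abundant importer at 42.8, 55.4 and 54.6 FPKM in the same order, had a log2 ratio of -0.75 (-0.86 to -0.64), short of 2-fold. The sulfate carrier Slc26a2 had 245 counts in the Drosha-null, 88 in the Ter119-low and 83 in the control library, a log2 ratio of 1.15 (0.79 to 1.53). Slc12a9, a member of the cation-chloride cotransporter family, rose by 1.14 (0.49 to 1.87). Slc26a1, another sulfate carrier, had 12 counts in the Drosha-null, 7 in the Ter119-low and 2 in the control library, a ratio of 3.77 (1.01 to 41.6) whose lower end lay almost at 1. The fallen member was Slc4a5, an electrogenic sodium-bicarbonate cotransporter, with 11, 20 and 40 counts in the same order and a log2 ratio of -2.22 (-3.38 to -1.28).

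Among carriers of organic ions, urea and transmitters 4 rose and 3 fell of 13 measured, with a median of 0.36. These were 30.8% and 23.1%, against 12.4% and 7.79% of all genes. Slc14a1, the urea carrier of the red cell membrane that bears the Kidd blood group antigens in humans, had 1024 counts in the Drosha-null, 254 in the Ter119-low and 217 in the control library. Its log2 ratio was 1.83 (1.62 to 2.05) for Drosha-null against control and 0.14 (-0.12 to 0.41) for Ter119-low against control, so the Drosha-null library stood above both others. Slc22a23, a member of the organic ion carrier family whose substrate is not established, had 1541, 456 and 371 counts in the same order, a log2 ratio of 1.65 (1.48 to 1.81) for Drosha-null and of 0.21 (0.01 to 0.41) for Ter119-low against control. These were the most abundant of the risen carriers, at 30.2 FPKM for Slc14a1 and 26.7 FPKM for Slc22a23 in the Drosha-null library, 7.38 and 7.81 FPKM in the Ter119-low library and 6.27 and 6.30 FPKM in the control library.

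The vesicular monoamine carriers moved in opposite directions. Slc18a2 (VMAT2) had 205 counts in the Drosha-null, 85 in the Ter119-low and 61 in the control library, a log2 ratio of 1.33 (0.92 to 1.78) against control. Slc18a1 (VMAT1) had 0, 8 and 11 counts in the same order and, set against the floor of 3 counts per library, was at least 4.86-fold lower in the Drosha-null than in the control library. The near end of its counting interval, which also covers the error of the control count, was 3.33-fold. The creatine carrier Slc6a8, with 54, 15 and 11 counts, rose by 1.84 (0.94 to 2.97) on the log2 scale. Slc22a4, the ergothioneine carrier OCTN1, had 87, 128 and 133 counts and a log2 ratio of -1.02 (-1.43 to -0.62), which scaling by total counts moved to -0.58. The carnitine carrier Slc22a16 had 2, 14 and 12 counts, 6.63-fold (1.77 to 73.2) fewer in the Drosha-null than in the control library after scaling.

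Amino acid carriers were the largest group, with 7 risen and 3 fallen of 31 measured and a median log2 ratio of -0.19. These were 22.6% and 9.68%, against 12.4% and 7.79% of all genes. Several well known carriers of this group did not rise. Slc7a11, the cystine-glutamate exchanger, had 5897 counts in the Drosha-null, 6157 in the Ter119-low and 6110 in the control library, a log2 ratio of -0.46 (-0.51 to -0.41). Its partner Slc3a2, the heavy chain shared by several exchangers, had a log2 ratio of -0.57 (-0.70 to -0.43), and Slc7a5, the large neutral amino acid exchanger LAT1 that pairs with the same chain, of -0.80 (-0.94 to -0.67). Slc6a9, the glycine carrier GlyT1 that supplies heme synthesis, had 1217, 1111 and 1179 counts and a log2 ratio of -0.36 (-0.48 to -0.24). The glutamine carriers Slc38a5 and Slc1a5 had log2 ratios of -0.30 (-0.48 to -0.13) and -0.41 (-0.83 to 0.02). All 6 lay under 2-fold, and by total counts Slc6a9, Slc38a5 and Slc1a5 changed sign, to 0.07, 0.13 and 0.03.

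Slc43a1 (LAT3), a carrier of large neutral amino acids, fell. It had 1183 counts in the Drosha-null, 1958 in the Ter119-low and 1852 in the control library, a log2 ratio of -1.05 (-1.16 to -0.95) against control and of -1.05 (-1.16 to -0.94) against Ter119-low. Total-count scaling took these to -0.62 and -0.71, under 2-fold. The Ter119-low and control libraries differed by -0.00 (-0.10 to 0.09).

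Other amino acid carriers rose. Slc38a1, a sodium-coupled carrier of glutamine and other neutral amino acids, had 1036 counts in the Drosha-null, 304 in the Ter119-low and 385 in the control library, a log2 ratio of 1.02 (0.85 to 1.19) against control and of 1.44 (1.26 to 1.64) against Ter119-low. Slc6a6, the taurine carrier, had 721, 310 and 265 counts in the same order and a log2 ratio of 1.03 (0.83 to 1.25). Both fell under 2-fold, to 0.73 and 0.82, once the median of genes of like length was taken off. Slc36a1, a proton-coupled carrier of small amino acids found on lysosomes, had 185, 57 and 58 counts and a log2 ratio of 1.26 (0.83 to 1.72). Slc38a4 had 98, 12 and 15 counts and a log2 ratio of 2.26 (1.51 to 3.19), and Slc1a3, a glutamate carrier, had 37, 10 and 8 counts and a log2 ratio of 1.73 (0.68 to 3.12). In these last 3 the Drosha-null library stood above both others, which overlapped within counting error. Slc36a4 rose by 1.27 (0.26 to 2.50).

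The carriers of cationic amino acids Slc7a2 and Slc7a3 fell on few counts. Slc7a3 had 3 counts in the Drosha-null, 4 in the Ter119-low and 25 in the control library, 9.66-fold (3.37 to 57.2) fewer in the Drosha-null and 6.01-fold (2.29 to 26.2) fewer in the Ter119-low library than in the control. It was thus low in both cKO libraries. Slc7a2 had 4, 12 and 18 counts and a log2 ratio of -2.45 (-4.60 to -0.98) for Drosha-null against control. Slc43a2 (LAT4), with 36, 3 and 13 counts, was 2.04-fold (1.08 to 4.29) higher in the Drosha-null than in the control library, and 4.09-fold (1.26 to 25.1) lower in the Ter119-low than in the control library.

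Among vitamin, folate and choline carriers 3 rose and 3 fell of 11 measured (27.3% each, all genes 12.4% and 7.79%), with a median of -0.27. Slc19a2, the thiamine carrier THTR-1, had 266 counts in the Drosha-null, 57 in the Ter119-low and 37 in the control library, a log2 ratio of 2.42 (1.94 to 2.98), whose lower end was farther from 0 than that of any other risen carrier. In humans, mutations of this gene cause thiamine-responsive megaloblastic anaemia. Slc52a3, a riboflavin carrier, showed the reverse order with 22, 55 and 90 counts and log2 ratios of -2.42 (-3.18 to -1.75) for Drosha-null and -0.79 (-1.31 to -0.30) for Ter119-low against control. The other riboflavin carrier, Slc52a2, had 48, 77 and 74 counts and a log2 ratio of -1.03 (-1.59 to -0.49), or -0.59 by total counts.

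The folate carriers were scarce or under 2-fold. Slc19a1, the reduced folate carrier, had 129 counts in the Drosha-null, 134 in the Ter119-low and 118 in the control library, a log2 ratio of -0.28 (-0.65 to 0.09) that total counts turned to 0.15. Slc46a1, the proton-coupled folate carrier, had 4, 4 and 14 counts in the same order, low in both cKO libraries, with log2 ratios of -2.10 (-4.28 to -0.54) and -1.77 (-3.95 to -0.22) against control. Slc46a3, a lysosomal carrier of the same family, had 85, 24 and 31 counts and rose by 1.03 (0.44 to 1.69). Slc44a5, of the choline carrier family, had 19, 3 and 0 counts and was, by the floor of 3 counts, at least 4.78-fold higher in the Drosha-null than in the control library, with the near end of its counting interval at 3.52-fold. The vitamin C carrier Slc23a2, the most abundant of the group at 11.8, 13.9 and 12.7 FPKM in the same order, had a log2 ratio of -0.54 (-0.69 to -0.39).

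Sugar and monocarboxylate carriers had 2 risen and 2 fallen of 14 measured (14.3% each, all genes 12.4% and 7.79%), with a median of 0.04. The glucose carriers of the group with the most RNA stayed under 2-fold. Slc2a1 had 1737 counts in the Drosha-null, 1633 in the Ter119-low and 1417 in the control library, a log2 ratio of -0.11 (-0.22 to -0.01) that total counts turned to 0.32. Slc2a3 (GLUT3) had 601, 372 and 388 counts and a log2 ratio of 0.22 (0.04 to 0.41). Slc2a4 (GLUT4), the insulin-responsive glucose carrier, fell with 12, 34 and 43 counts and a log2 ratio of -2.21 (-3.31 to -1.30). Slc2a9, a urate carrier, had 52, 14 and 5 counts and a log2 ratio of 2.85 (1.66 to 4.65) against control.

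The lactate carriers differed from each other. Slc16a3 (MCT4), which exports lactate from glycolytic cells, had 272 counts in the Drosha-null, 75 in the Ter119-low and 59 in the control library, a log2 ratio of 1.79 (1.39 to 2.23) against control. Slc16a1 (MCT1) had 416, 443 and 489 counts in the same order and a log2 ratio of -0.64 (-0.83 to -0.45). Slc16a6 had 851, 380 and 390 counts and a log2 ratio of 0.72 (0.54 to 0.89), and its exons overlap those of Amz2 and Arsg on the other strand. Slc16a13 had 35, 36 and 65 counts and a log2 ratio of -1.29 (-1.94 to -0.69), or -0.86 by total counts. The Ter119-low library held 19 counts of Slc16a11, where the Drosha-null library held 3 and the control 2, which made it 7.36-fold (2.16 to 79.3) higher in Ter119-low than in control cells.

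**Figure D3:**
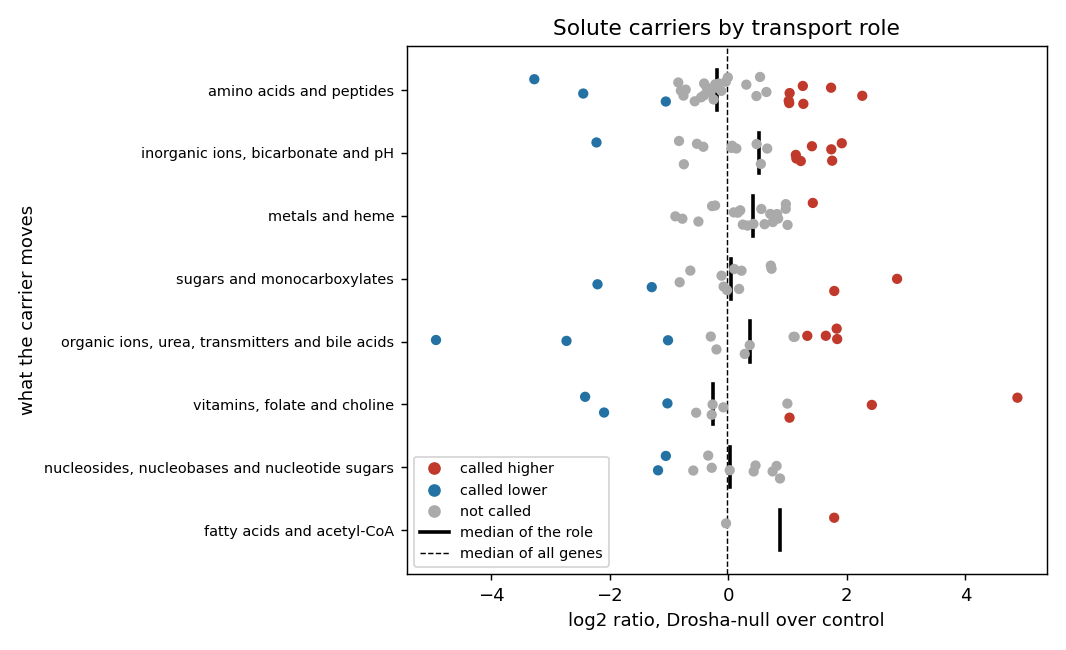
Log2 ratio for Drosha-null over control of the carriers measured, by what they move, with the median of each role (thick bar) and of all genes (dashed line). By TMM 7 of 18 ion and pH carriers rose and 20 of 21 metal and heme carriers lay inside the rule, where 12.4% of all genes rose. By total counts 9 of 19 ion and pH carriers and 9 of 21 metal and heme carriers rose, so the contrast rested on the scaling. The points at -4.93 and 4.88 are genes with 0 counts in 1 library.

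Metal and heme carriers stayed mostly inside the rule, although their median of 0.42 lay above that of all genes. By TMM 1 of 21 rose and 0 fell (4.76% and 0%, all genes 12.4% and 7.79%). This count rested on the scaling: by total counts 9 of the 21 rose and 0 fell, where 23% of all genes rose. The risen gene was Slc39a14 (ZIP14), an importer of zinc, manganese and iron, with 69 counts in the Drosha-null, 33 in the Ter119-low and 19 in the control library, a log2 ratio of 1.43 (0.70 to 2.27). Slc40a1, the iron exporter ferroportin, had 345, 174 and 145 counts in the same order and a log2 ratio of 0.84 (0.56 to 1.13), which total counts took past 2-fold, to 1.27. Slc39a6, a zinc importer, had 123, 36 and 47 counts, a log2 ratio of 0.97 (0.48 to 1.5) against control and of 1.44 (0.90 to 2.03) against Ter119-low. The most abundant members had negative ratios: -0.77 (-0.83 to -0.72) for Slc39a8 and -0.89 (-0.98 to -0.81) for Slc30a10, a manganese exporter with 37.3, 45.3 and 51.2 FPKM in the same order. The copper importer Slc31a1 had a log2 ratio of 0.20 (-0.00 to 0.41). The heme carrier Slc48a1 had 202, 213 and 216 counts and a log2 ratio of -0.50 (-0.79 to -0.22).

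Nucleoside, nucleobase and nucleotide sugar carriers had 0 risen and 2 fallen of 11 (0% and 18.2%, all genes 12.4% and 7.79%). Their median was 0.02. Both fallen genes were abundant. Slc43a3 had 1496 counts in the Drosha-null, 2573 in the Ter119-low and 2565 in the control library, a log2 ratio of -1.18 (-1.28 to -1.09), and -0.75 by total counts. Slc29a1, the equilibrative nucleoside carrier ENT1 of the red cell membrane, had 343, 435 and 537 counts in the same order and a log2 ratio of -1.05 (-1.25 to -0.86), and -0.62 by total counts, which left 0 fallen and 3 risen carriers in this group. Slc43a3 and Slc43a1 lie near each other on chromosome 2, at chr2:84936579-84958509 and chr2:84838850-84863594 on the plus strand (GRCm38). Slc29a4, a carrier of monoamines and adenosine, was low in the Ter119-low library alone with 2 counts, against 21 in the Drosha-null and 20 in the control library, which made it 8.69-fold (2.58 to 93.6) lower in Ter119-low than in control cells.

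Of 2 measured fatty acid and acetyl-CoA carriers, Slc27a4 (FATP4), a long-chain fatty acid carrier, rose with 75 counts in the Drosha-null, 23 in the Ter119-low and 16 in the control library, a log2 ratio of 1.79 (1.03 to 2.70). Slc33a1, which brings acetyl-CoA into the endoplasmic reticulum, had 88, 48 and 68 counts and a log2 ratio of -0.04 (-0.51 to 0.44).

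Several families held a risen carrier beside an abundant one that had not risen, and the ratio of both within 1 library needs no scaling between libraries. The pairs were chosen after the values were seen. Each took the most abundant risen carrier of a family and its most abundant relative of the same role with a negative log2 ratio. The risen carrier had to reach 10 CPM in the Drosha-null library, and the relative 10 CPM in at least 1 library. The direction against control is thus fixed by the choice, and only the sizes are described. Per base of gene length, Slc16a3 stood to Slc16a1 at 1.19 (1.02 to 1.39) in the Drosha-null, 0.308 (0.237 to 0.394) in the Ter119-low and 0.219 (0.164 to 0.288) in the control library. Slc19a2 stood to Slc19a1 at 1.37 (1.11 to 1.70), 0.283 (0.204 to 0.388) and 0.208 (0.140 to 0.304) in the same order. In both pairs the carrier that was the scarcer in Ter119-low and control cells was the more abundant in Drosha-null cells.

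The same held for Slc4a7 over Slc4a2, a chloride-bicarbonate exchanger, at 1.81 (1.45 to 2.27) in the Drosha-null, 0.824 (0.636 to 1.07) in the Ter119-low and 0.507 (0.382 to 0.672) in the control library, though the Ter119-low interval held 1. Slc22a23 over Slc22a4 gave 6.40 (5.16 to 8.04), 1.29 (1.06 to 1.58) and 1.01 (0.825 to 1.24) in the same order. In the other pairs the order of the carriers stayed: Slc20a2 over Slc20a1 was 0.122, 0.0265 and 0.0213, Slc38a1 over Slc38a2 was 0.326, 0.116 and 0.156, and Slc6a6 over Slc6a9 was 0.314, 0.148 and 0.119.

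**Figure D4:**
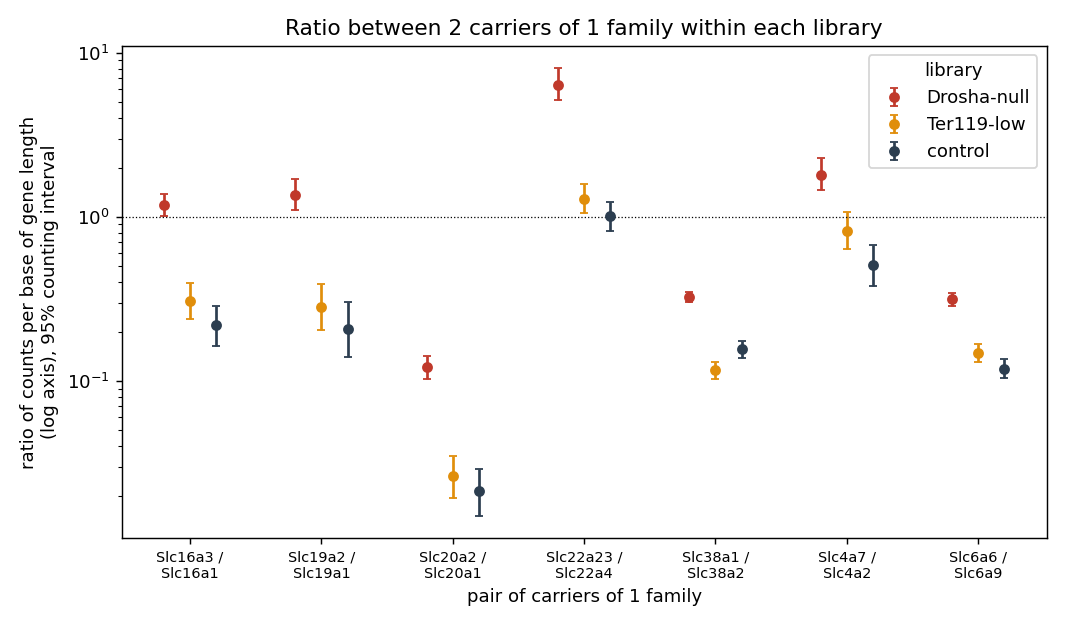
Ratio between carriers of a family, for 7 pairs, within each library, in counts per base of gene length on a log axis, with 95% counting intervals; the dotted line marks equal levels. In every pair the Drosha-null ratio is the highest, which against control follows from how the pairs were chosen, and Slc16a3 over Slc16a1 was 1.19 in the Drosha-null, 0.308 in the Ter119-low and 0.219 in the control library.

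At least 1 of these sets of letters occurred in 52 of the 121 carriers measured for Drosha-null against control (43%), against 37.7% of 10374 genes with an annotated 3′ untranslated region. The miR-451a letters occurred in 5 carriers (4.13%, against 2.09% of all genes). Of these 5 carriers, Slc43a2 and Slc44a5 rose and 0 fell, and of 217 genes of any kind with these letters 32.3% rose and 3.23% fell. The let-7 letters occurred in 16 carriers (13.2%, against 11.1% of all genes), of which Slc12a9, Slc22a23, Slc26a1, Slc27a4 and Slc6a8 rose (31.2%) and 0 fell, and Slc22a23 held 3 matches. Among 1150 genes of any kind with the let-7 letters 15.9% rose and 5.65% fell. In each of the 5 families the median log2 ratio was higher for carriers with a match, 0.36 to 0.44, than for carriers without one, 0.02 to 0.10. All genes showed the same order, with medians of 0.12 to 0.59 with a match and -0.04 to -0.01 without. The log2 ratio of all genes also climbed with gene length, as given below. Length was not matched between genes with and without the letters, and its part in these medians was not tested.

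The miR-144-3p letters occurred in 13 carriers (10.7%, against 14.5% of all genes), of which 3 rose and 0 fell (all genes with the letters, 15.5% and 3.99%). Those of miR-92a/25 occurred in 8 (6.61%, against 7.91%), of which 1 rose and 0 fell (all genes with the letters, 19.2% and 4.63%). The miR-17/20/93 letters occurred in 24 (19.8%, against 15.5%), of which 5 rose, Slc19a2 among them, and 3 fell, Slc2a4 among them, or 20.8% and 12.5%, against 17.4% and 3.99% of all genes with the letters. The risen carriers Slc14a1 and Slc16a3 held none of these letters in the region searched. A match is a description of the letters, not of a site in use, and mature microRNAs were not analysed here.

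Length differed between risen and fallen carriers. The median gene length was 3973 bases for the 25 that rose, 2565 bases for the 14 that fell and 3355 bases for the 82 others. All genes showed a like gradient in this comparison, with a median log2 ratio of -0.59 in the shortest of 10 length classes and 0.29 in the longest. With the median of its length class taken off each gene, 24 carriers rose and 14 fell, of which 22 and 12 were shared with the counts above. Slc38a1, Slc43a2 and Slc6a6 no longer rose and Slc22a4 and Slc29a1 no longer fell, while Slc31a2 and Slc50a1 then rose and Slc30a10 (-1.11) and Slc7a14 fell. The metal and heme carriers then had 2 risen and 1 fallen, and the amino acid carriers 4 and 4. The counts after centring are not set beside the shares of all genes after the same step. They are thus not read as traits of the carriers.

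**Figure D5:**
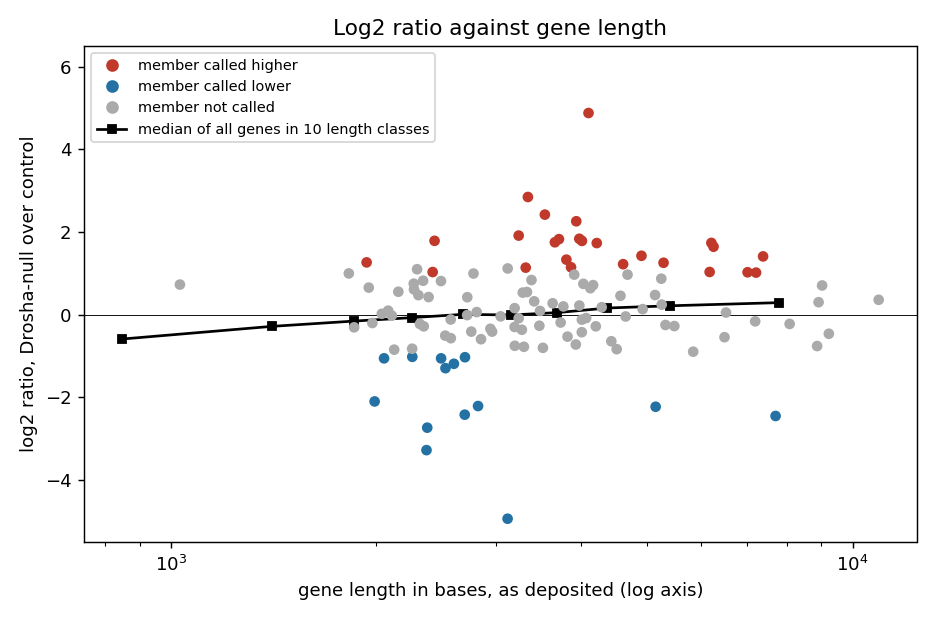
Log2 ratio for Drosha-null over control of each carrier measured against the deposited gene length on a log axis, with the median of all genes in 10 length classes as the black line. The line climbs with length, from -0.59 in the shortest class to 0.29 in the longest, and risen carriers (median 3973 bases) lie to the right of fallen ones (median 2565 bases).

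Where a carrier's exons share positions with another gene, reads of both could not be separated, since no source used here gives the strandedness of the libraries. This applied to 42 of the 135 carriers, 7 with a gene on the same strand and 37 with one on the other. Among them were Slc20a2 (Smim19 on the other strand), Slc26a1 (Idua), Slc6a9 (B4galt2), Slc48a1 (Hdac7), and Slc2a1, Slc18a2, Slc29a1, Slc43a2 and Slc44a5, which overlap predicted genes. The counts of these carriers are uncertain to that extent.

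Other membrane transport genes were listed by family together with 7 transport partners and channels and with earlier results of these data known. They showed 15 risen and 4 fallen of 79 measured for Drosha-null against control, with a median log2 ratio of 0.20. As shares, 18.99% of them rose and 5.06% fell. The shares were 20.7% and 11.6% for the 121 carriers and 12.4% and 7.79% for all genes. A share of risen genes above that of all genes was thus not particular to the carriers. ABC transporters, which use ATP to export substrates, had 6 risen and 0 fallen of 22, among them Abcc4 with 150 counts in the Drosha-null, 30 in the Ter119-low and 19 in the control library and a log2 ratio of 2.54 (1.88 to 3.35). Xpr1, the phosphate exporter, had 1401, 450 and 274 counts in the same order and a log2 ratio of 1.94 (1.76 to 2.14), so an exporter and the importer Slc20a2 both rose. Aqp3, a water and glycerol channel, fell with 213, 484 and 515 counts and a log2 ratio of -1.68 (-1.92 to -1.45). Bsg, the chaperone that brings Slc16a1 and Slc16a3 to the membrane, had 2523, 2145 and 1986 counts and a log2 ratio of -0.06 (-0.15 to 0.02). Of the 4 solute carriers set aside, Slc39a10, a zinc importer, rose by 1.54 (1.22 to 1.89), and Slc4a1, the anion exchanger band 3, fell by 1.21 on the log2 scale.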

How the data were processed

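Total RNA of 3 pooled erythroblast libraries, 1 per group by their labels, was sequenced. The authors deposited expected counts per gene, estimated read counts that are fractional for some genes, and FPKM values, which divide counts by gene length and library size, per the file headers. The aligner, counting program, strandedness and build were not given in the sources used here. Joining the deposited tables on gene ID gave 15058 genes, with 0 counts for a gene missing from 1 table, and counts were rounded to whole numbers. Scaling was by TMM in edgeR 4.0.16 (R 4.3.3). Ratios and intervals were computed in Python 3.11.15 with NumPy 2.4.6, SciPy 1.17.1 and pandas 2.3.3, and tested on simulated data. Length is the deposited gene length, averaged over the tables. Carriers were assigned to 8 roles by family. Alternatives were total-count scaling, median-of-ratios size factors (as in DESeq2, version 1.42.0), other count limits, the FPKM ratio, centring by length class and the whole interval past 2-fold. Members and lists were chosen with earlier results of these data known. Named genes were those past the rule at 10 CPM or more, the 2 most abundant and the largest ratio of each role, 20 carriers known in red cells, and those at the count limit; others named with counts were chosen after their values were seen. Pools are not replicated, so no value carries an error between pools. The floor of 3 counts came to 0.269 CPM in the Drosha-null, 0.337 in the Ter119-low and 0.357 in the control library. Of the 135 carriers, 125 were measured in at least 1 comparison and 10 in none, and 12 had fractional counts. Some carriers that count among the members are not reported here by name.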

Additional observations from a re-analysis of the deposited data

Results flagged for a closer look

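Slc43a2, a carrier of branched-chain and aromatic amino acids, moved in opposite directions in the cKO libraries. It had 36 counts in the Drosha-null, 3 in the Ter119-low and 13 in the control library, so it was higher than control in Drosha-null cells and lower in Ter119-low cells. The rise, a log2 ratio of 1.03, lay close to 2-fold and no longer passed after centring by length class. The 3 counts of the Ter119-low library lie at the floor, and with a limit of 5 CPM neither the rise nor the fall passed. The log2 ratio of Slc43a2 for Drosha-null against Ter119-low was 3.06, or 8.34-fold (3.03 to 48.7, counting interval). The difference between the 2 comparisons with the shared control was not tested, since each group has 1 library.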

How the results depend on the processing

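No paired analysis was possible because each group has 1 library. Under total-count and median-of-ratios scaling, 0 carriers past the rule changed sign. For Drosha-null against control, scaling by total counts gave 43 risen and 8 fallen carriers and a median log2 ratio of 0.59. The FPKM ratio gave 43 and 8 with a median of 0.56. A limit of 5 CPM left 18 risen and 8 fallen, and the whole interval lay past 2-fold for 11 risen and 6 fallen. For Drosha-null against Ter119-low, total counts gave 43 higher and 5 lower with a median of 0.63, the FPKM ratio 42 higher with a median of 0.60, the 5 CPM limit 15 and 3, and the whole interval 11 and 3. For Ter119-low against control, total counts gave 5 higher, the FPKM ratio 7 higher, the 5 CPM limit 0 higher and 0 lower, and the whole interval 1 and 2. Fewer genes are measured at the 5 CPM limit by construction, and total counts and FPKM omit the TMM factors of 1.19 (Drosha-null), 0.946 (Ter119-low) and 0.885 (control). Total counts add 0.43 to the log2 ratio of every gene for Drosha-null against control. They add 0.34 for Drosha-null against Ter119-low and 0.10 for Ter119-low against control. The larger counts and medians under these settings are thus not read as traits of the carriers. The shares of all genes are not set beside the counts of this section, so the smaller counts are not read so either. Median-of-ratios scaling, no count limit and length-class centring kept the counts of the main setting within 1.5 times. Counting error limits the scarce carriers: 48 of 135 had 100 or more counts in every library.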
